A study of Mus musculus with 10 samples.

Results

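The regions described here are stretches of the mouse autosomes that carried an ATAC-seq peak in spermatocytes sorted on 4C DNA content and none in cKIT+ spermatogonia. ATAC-seq marks open chromatin by inserting sequencing adapters where DNA is free of nucleosomes. Peaks of 8 lists were joined where they overlapped by at least 1 bp, which gave 202046 regions on chromosomes 1 to 19. A region was kept when all 4 lists of 4C-sorted cells had a peak in it and none of the 4 lists of cKIT+ cells did, and 3313 regions met this rule. They were a part of the 28032 regions found in all 4 lists of 4C-sorted cells, of which 17717 were found in all 8 lists. The regions were selected on peak presence in both sorts, so presence and absence of peaks are given as a description without a test, and a missing peak means only that none was called.

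Each sort was represented by 2 wild type C57BL6 libraries and 2 libraries of Smarca5 fl/delta; Ddx4-Cre+ mice (cKO), with 50000 cells per library. SMARCA5 is the ATPase of ISWI chromatin remodelers, and Ddx4-Cre deletes floxed alleles in germ cells. Somatic cells of the cKO testis thus keep the floxed allele, beside the delta allele. The 4C sort used Hoechst staining, and the labels call these cells pachytene spermatocytes; a 4C gate also admits any other diploid cell that has replicated its DNA. The other 2 samples of the series were droplet single-cell RNA libraries of whole cKO testis, and no wild-type RNA was analysed here. Nothing in the labels says whether replicates are separate animals, and every p below therefore measures only the spread between these samples. The lists of 4C-sorted cells held 54059 to 59417 peaks and those of cKIT+ cells 44697 to 127222, with the shortest list from wild-type cKIT+ replicate 1. The reads behind the peak lists were not counted here, so the depth of each ATAC library is unknown. Of the cell class markers, 14 of the 15 for pachytene or diplotene spermatocytes had a region of all 8 lists at their start. Presence of a peak at these starts thus did not separate the sorts, and peak signal was not compared between sorts. None of the autosomal markers in the 8 lists for somatic and blood cells (5 to 11 genes each) had a region open only in 4C-sorted cells at its start, or at an end where no start was listed; 1.15% of all protein-coding autosomal genes did, and among these 67 markers a count of 0 is near that share.

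During the first meiotic prophase, spermatocytes leave the spermatogonial programme and begin to transcribe a large set of testis genes, many of them needed only later in spermatids. The MYB family factor MYBL1 is known as a regulator of pachytene transcription, and RFX family factors such as RFX2 as regulators of genes for spermatid differentiation and the flagellum. Promoters of widely expressed genes often lie in CpG islands and stay free of nucleosomes in most cell types, while many tissue-restricted promoters are poor in CpG.

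The promoters below show what the regions look like at gene starts. Each is the 250 bases before a RefSeq gene start (GRCm38.p6, the assembly that mm10 names), read 5′ to 3′ on the strand of the gene and overlapped by one of the regions. They were chosen after the values were seen, for a high peak, for high expression or for a gene on the lists used below. In the first 4, capitals mark matches to the letters of a MYB site (GGCNGTT, either strand). The lncRNA genes 4930595L18Rik (chr6:98552105-98552354, minus strand) and 4930403D09Rik (chr11:34299492-34299741, plus strand), the CatSper channel gene Catsperb (chr12:101404423-101404672, plus strand) and Tsga10ip (chr19:5402507-5402756, minus strand) are shown.
4930595L18Rik: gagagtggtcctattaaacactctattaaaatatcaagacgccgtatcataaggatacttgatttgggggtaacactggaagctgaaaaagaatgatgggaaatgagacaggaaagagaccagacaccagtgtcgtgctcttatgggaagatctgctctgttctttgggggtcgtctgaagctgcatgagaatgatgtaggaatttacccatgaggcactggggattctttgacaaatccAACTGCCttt
4930403D09Rik: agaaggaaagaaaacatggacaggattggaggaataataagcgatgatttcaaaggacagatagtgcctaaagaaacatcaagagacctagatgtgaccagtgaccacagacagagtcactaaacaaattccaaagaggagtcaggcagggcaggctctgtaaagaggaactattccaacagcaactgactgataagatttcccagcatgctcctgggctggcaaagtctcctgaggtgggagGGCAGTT
Catsperb: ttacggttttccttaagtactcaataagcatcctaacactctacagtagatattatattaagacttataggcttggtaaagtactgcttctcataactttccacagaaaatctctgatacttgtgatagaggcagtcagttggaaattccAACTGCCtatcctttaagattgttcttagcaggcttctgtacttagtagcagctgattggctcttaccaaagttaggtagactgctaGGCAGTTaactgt
Tsga10ip: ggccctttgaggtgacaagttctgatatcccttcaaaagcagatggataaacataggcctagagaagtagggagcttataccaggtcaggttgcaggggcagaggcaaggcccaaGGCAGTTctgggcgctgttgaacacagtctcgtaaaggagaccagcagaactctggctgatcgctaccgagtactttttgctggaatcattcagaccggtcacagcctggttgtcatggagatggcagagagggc

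The match ended 4 bases before the start in 4930595L18Rik and 1 base before it in 4930403D09Rik. Catsperb held 1 match 7 to 13 bases and another 94 to 100 bases before its start, and the match of Tsga10ip lay 129 to 135 bases before the start. In the next 4, capitals mark matches to an RFX site (GTTNCCA, either strand). These promoters belong to Pgam2 (chr11:5803797-5804046, minus strand), which encodes a phosphoglycerate mutase of glycolysis, to Ttc6 (chr12:57563865-57564114, plus strand), to Ccdc144b (chr3:36053548-36053797, minus strand) and to the lncRNA gene 1700110I01Rik (chr14:3262152-3262401, plus strand).
Pgam2: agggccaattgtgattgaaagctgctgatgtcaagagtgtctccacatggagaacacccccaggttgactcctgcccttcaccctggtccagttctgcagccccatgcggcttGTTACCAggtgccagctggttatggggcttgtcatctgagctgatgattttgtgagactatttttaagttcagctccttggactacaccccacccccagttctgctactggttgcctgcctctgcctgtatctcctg
Ttc6: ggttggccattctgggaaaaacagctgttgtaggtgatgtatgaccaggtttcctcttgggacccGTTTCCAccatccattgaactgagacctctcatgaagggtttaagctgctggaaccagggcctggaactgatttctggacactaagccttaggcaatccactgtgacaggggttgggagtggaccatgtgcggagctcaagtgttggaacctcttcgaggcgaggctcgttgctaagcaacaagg
Ccdc144b: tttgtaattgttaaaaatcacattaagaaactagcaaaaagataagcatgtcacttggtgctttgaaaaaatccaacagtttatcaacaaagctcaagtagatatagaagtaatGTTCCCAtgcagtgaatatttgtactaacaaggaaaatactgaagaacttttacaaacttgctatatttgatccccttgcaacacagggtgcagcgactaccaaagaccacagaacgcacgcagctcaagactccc
1700110I01Rik: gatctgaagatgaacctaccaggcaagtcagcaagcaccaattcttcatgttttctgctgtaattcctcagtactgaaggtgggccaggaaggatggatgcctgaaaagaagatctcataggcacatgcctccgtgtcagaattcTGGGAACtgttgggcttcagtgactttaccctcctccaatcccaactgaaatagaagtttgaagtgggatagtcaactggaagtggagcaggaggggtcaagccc

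The RFX matches lay between 99 and 185 bases before the starts of these 4 genes. That of Ccdc144b was outside its region, which ended nearer to the start; the other 8 matches shown lay inside theirs.

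As a group, promoters overlapped by the regions were poor in CpG. A window of 300 bases (250 before and 50 after the start) was read for every RefSeq start in the table, and 354 windows of 322 genes were overlapped by a region open only in 4C-sorted cells. These windows held a median of 4 CpG (quartiles 2 and 8), against 23 (16 and 31) in 12421 windows overlapped by a region of all 8 lists and 7 (3 and 21) in all 31365 windows. Their median GC content was 49.8%, against 62.7% in windows with a region of all 8 lists and 53.0% in all windows. Windows with fewer than 5 CpG made up 57.1% of the 354, 2.02% of those with a region of all 8 lists and 37.7% of all windows.

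Among 12 motifs searched on both strands, those of MYB and RFX were present in a larger share of these windows than of all windows. The MYB letters matched in 24.9% of the 354 windows and 12.2% of all windows, and the RFX site in 29.4% and 16.7%. The box of NF-Y (CCAAT), which can overlap the end of an RFX site, matched in 45.8% and 37.3%. The order was the other way for letters typical of CpG-rich promoters. SP and KLF sites (GGGCGG) matched in 17.2% of the 354 windows, 36.0% of all windows and 68.8% of windows with a region of all 8 lists, and NRF1 sites (GCNTGCG) in 7.06%, 16.5% and 33.7%. The TATA box (TATAAA) matched in 11.0% and 13.6%, and the CTCF motif in 0.847% and 2.47%. The other 5 motifs were the cAMP response element (2.54% and 2.97%), the E-box CACGTG (3.95% and 7.14%), the BANP site TCTCGCG (0.282% and 2.55%), the ETS site CCGGAAG (5.37% and 9.0%) and the DMRT site ACAATGT (3.11% and 3.01%). The differences in MYB, RFX and NF-Y letters were also present at low CpG content. Among windows with fewer than 5 CpG, 26.2% of the 202 with a region open only in 4C-sorted cells held a MYB match, against 10.2% of all 11813. RFX letters matched in 35.6% and 18.7%, NF-Y letters in 54.0% and 39.8%, and the TATA box in 11.9% and 23.4%. The lower shares of SP and KLF sites and of ETS sites were not seen there (5.45% and 4.67%, 3.47% and 0.974%). Chromosome 14 was not left out of these low-CpG shares. That chromosome carries near-identical copies of some of the 354 windows. Without it, the shares at any CpG content were 27.9% for MYB, 25.3% for RFX and 40.6% for NF-Y, against 12.1%, 16.5% and 37.4% of all windows. Most genes were higher in pachytene-like cells with and without these letters. Of the tested genes read here, 44 of 49 with a MYB match and 113 of 138 without one were higher in pachytene-like than in spermatogonia-like cells in the edgeR test used for all genes, with median log2 changes of 4.42 and 3.98. For RFX the counts were 47 of 54 and 110 of 133, with medians of 4.37 and 4.05. A match of letters is a description of the sequence and not a bound site, and no test was made of these shares.

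**Figure D1:**
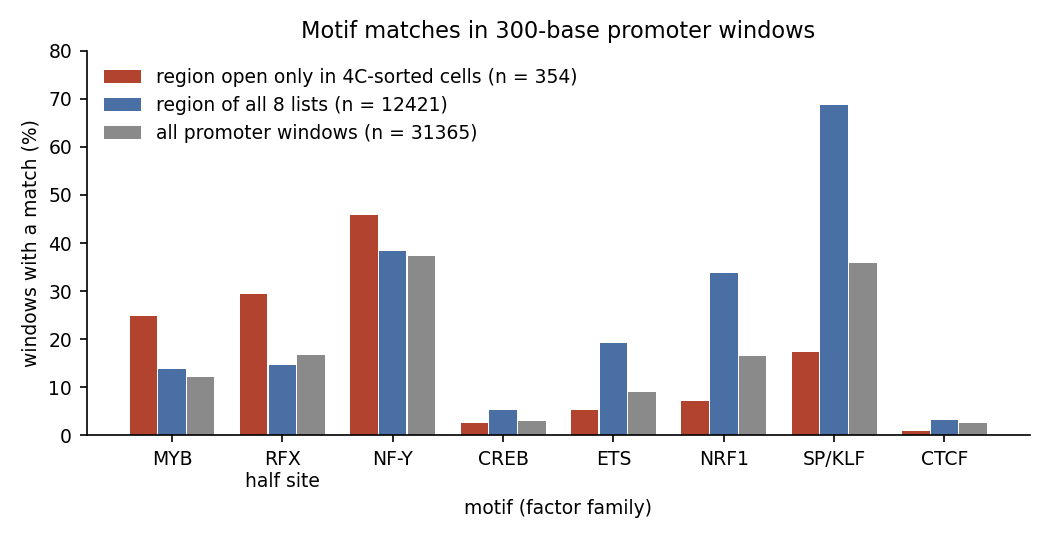
Share of 300-base promoter windows (vertical axis, %) with at least 1 match to the letters of each motif (horizontal axis), for windows overlapped by a region open only in 4C-sorted cells, windows overlapped by a region of all 8 lists, and all windows. MYB and RFX bars are highest in the first group (24.9% and 29.4%), and SP/KLF bars are highest in the second (68.8%).

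Peaks in the regions were lower than peaks shared by all libraries. The authors' fold enrichment is the height of a peak over the local background of its own library, and here it is used only to describe peaks within a list. Median fold over the 3313 regions was 4.08 and 4.29 in the wild-type 4C-sorted libraries and 3.94 and 4.00 in the cKO libraries. Over the regions of all 8 lists the medians were 5.64, 5.64, 5.27 and 5.36 in the same order, so that the regions stood lower in every library. The median width of the regions was 570 bp (quartiles 409 and 798, range 121 to 2763), against 1060 bp for regions of all 8 lists. Width spans every peak joined in a region. Regions of all 8 lists join peaks of 8 lists and these regions join peaks of 4, so the widths are not a like comparison. Many lay near the calling threshold. In 1439 of the 3313, the −log10 q was under 2 in at least 1 of the 4 lists, and it was at least 5 in all 4 lists in 362. Together the regions held 6.06% to 7.001% of the autosomal peaks of each 4C-sorted list.

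**Figure D2:**
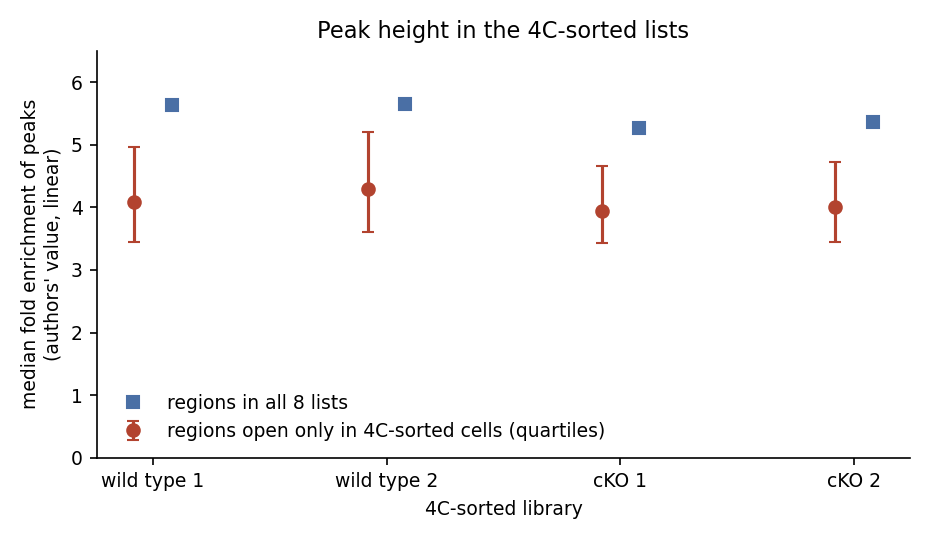
Median fold enrichment of peaks (vertical axis, linear, authors' value) in each of the 4 4C-sorted libraries (horizontal axis), with quartile bars for regions open only in 4C-sorted cells. The 4 medians lie between 3.94 and 4.29, all below the medians of regions found in all 8 lists, which lie between 5.27 and 5.64.

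The highest peaks lay away from gene starts. The region with the highest mean fold, chr7:36344121-36344379, stood at 13.2 and 13.5 (wild type) and 13.3 and 14.6 (cKO). Its nearest start on the list, that of the lncRNA gene Gm46016, was 172817 bp away. The next, chr4:143047956-143048357, stood at 12.5 and 10.8 (wild type) and 8.34 and 9.61 (cKO), and lay 251207 bp from Pdpn. The 2 regions differed in genotype pattern: the groups overlapped at the first, while both cKO values were below both wild-type values at the second. The other 8 of the 10 highest had mean folds of 8.20 to 9.002. Of these, 4 lay inside a gene: Dlgap2, which encodes a postsynaptic scaffold protein, 4930519G04Rik, Rph3a, which encodes an effector of synaptic vesicle traffic, and Pdzd2. The 5 widest regions, of 2102 to 2763 bp, had mean folds of 3.02 to 4.45, so that width did not go with height among them. They included a region inside Fads2, a fatty acid desaturase gene, at chr19:10089745-10092154, and one at the start of the lncRNA gene 4933422A05Rik at chr9:35279702-35281803.

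Most of the regions were not promoters. A gene start lay within 1000 bp of 392 of the 3313 regions (11.8%, exact Clopper-Pearson 95% interval 10.8% to 12.98%, counting error only), against 54.1% of the regions of all 8 lists and 6.01% of the 5923 regions found in all 4 cKIT+ lists and no list of 4C-sorted cells. Another 5.83% lay at an end of a gene whose start was not in the table, 51.0% lay elsewhere inside a gene and 31.4% lay outside genes. The median distance to the nearest listed start was 17400 bp, and 63.4% of the regions with a distance were more than 10 kb away. Where a region did lie at a start, the gene was often a lncRNA gene: 171 of the 392 (43.6%) were at a protein-coding start and 221 were at lncRNA starts only, while 92.4% of the regions of all 8 lists at a start were at a protein-coding one. Starts on chromosome 18 were not in the table, so its 112 regions could be placed only by gene ends.

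**Figure D3:**
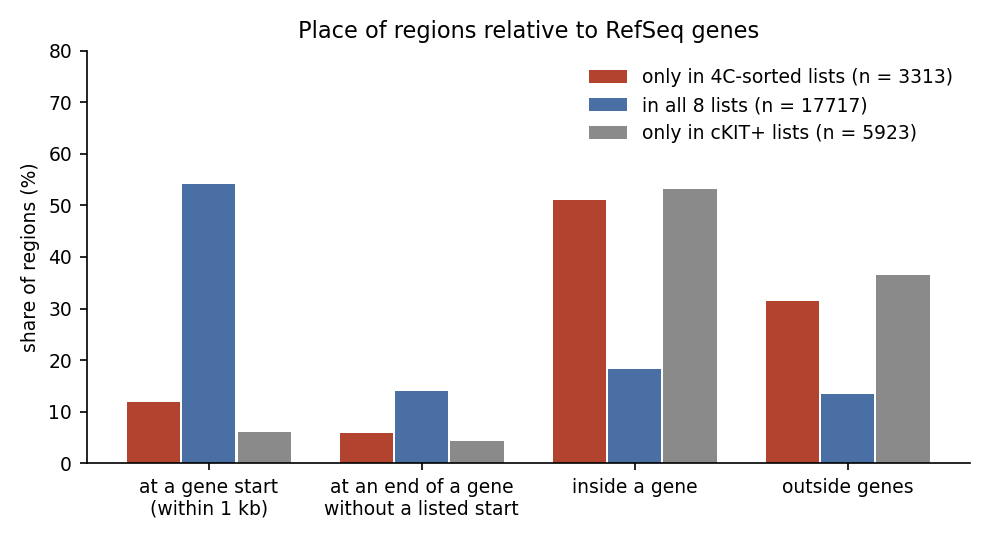
Share of regions (vertical axis, %) at a gene start, at an end of a gene without a listed start, inside a gene or outside genes (horizontal axis), for regions open only in 4C-sorted cells, in all 8 lists and only in cKIT+ lists. The first group has 11.8% at a gene start, against 54.1% for regions in all 8 lists.

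At gene starts the highest peaks belonged to Ttc6, a tetratricopeptide repeat gene, and to lncRNA genes. The region at Ttc6 (chr12:57563825-57564350) stood at 7.08 and 6.89 (wild type) and 8.24 and 9.12 (cKO), so that both cKO values were higher. That at 4930595L18Rik (chr6:98551733-98552323) stood at 9.21 and 7.46 (wild type) and 6.44 and 8.16 (cKO), with overlapping groups. The other 8 of the 10 highest had mean folds of 6.52 to 7.44 and lay at Gm41139, Gm12374, LOC115488376, Gm38505, Dip2b, Gm43221, Gm26630 with Gm21103, and Gm13017. Dip2b and Gm21103 are the protein-coding genes among those 8 places. Counting gene ends where no start was listed, regions at Tmem159 (mean fold 8.09), Gm26608 (7.74), Gm7133 (7.68), Mark1-ps2 (7.42) and Kif4-ps (6.99) joined the 10 highest. In all, 420 genes had a region open only in 4C-sorted cells at their start, 171 of them protein-coding and 249 lncRNA genes, and 33 of the 420 also had a region of all 8 lists there.

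Few genes of any list had such a region at the start. Counting an end where no start was listed, 238 of the 20665 protein-coding autosomal genes had one (1.15%) and 56.7% had a region of all 8 lists, and no test was made of the lists against these shares. No gene on the lists for recombination and synapsis (42 autosomal genes), transcription regulators of pachytene and spermatid stages (20), meiotic divisions (28), the piRNA pathway (26), protamines and testis histones (13) or testis-specific serine kinases (11) had one at its start. Regions of all 8 lists lay at 36 of the 42, 16 of the 20, 25 of the 28 and 22 of the 26 in the first 4 of these lists, and at 6 of 13 and 6 of 11 in the last 2. The lists for spermatogonial regulators (28 genes), developmental transcription factors (35), ribosomal proteins (39) and core promoter machinery (18) had none either. The list for the acrosome and gamete fusion had 2 of 33, that for the flagellum 3 of 60 and that for testis metabolic isozymes 4 of 26, so that 9 of the 379 genes on all 13 lists had one. Of the cell class markers, Spata16, a gene for acrosome formation, and Odf1 had one.

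For the acrosome and gamete fusion these were Izumo2, which encodes a sperm membrane protein of the IZUMO family, and Fam170a. The region at Izumo2 (chr7:44708638-44708999) stood at a fold of 5.16 and 3.74 (wild type) and 4.65 and 5.21 (cKO). At an end of Fam170a (chr18:50278243-50278843) the values were 6.35 and 4.36 (wild type) and 7.01 and 7.67 (cKO). The groups overlapped at Izumo2, and both cKO values were higher at Fam170a. For the flagellum they were Odf4 and Odf1, which encode parts of the outer dense fibres, and Catsperb, which encodes a subunit of the sperm calcium channel. Their folds were 4.40 and 5.48 (wild type) and 5.06 and 4.41 (cKO) at Odf4 (chr11:68926276-68927210), and 4.42 and 4.31 against 5.06 and 5.03 at Catsperb (chr12:101404177-101404754). At an end of Odf1 (chr15:38218793-38219417) they were 3.44 and 3.599 against 3.61 and 4.01. Both cKO values were above both wild-type values at Catsperb and Odf1, by little at Odf1, and the groups overlapped at Odf4.

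For metabolism and ion transport the genes were Slc9c1, a sperm sodium/proton exchanger gene, Adcy10, which encodes the bicarbonate-regulated soluble adenylyl cyclase, Atp1a4, which encodes the testis sodium pump subunit, and Pgam2. The region at Slc9c1 (chr16:45534304-45535713) stood at 5.98 and 5.15 (wild type) and 6.68 and 5.36 (cKO), and that at Adcy10 (chr1:165484695-165485304) at 5.68 and 5.92 against 4.86 and 5.94. At Atp1a4 (chr1:172258260-172258594) the folds were 3.89 and 3.56 against 4.17 and 4.35. Pgam2 (chr11:5803147-5804016) went the other way, with 4.29 and 4.95 (wild type) and 3.05 and 3.40 (cKO). Groups overlapped at Slc9c1 and Adcy10 and did not overlap at Atp1a4 and Pgam2. The region at Spata16 (chr3:26637330-26638466) stood at 4.69 and 6.09 against 4.89 and 3.94, with overlapping groups.

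Single-cell RNA, which took no part in choosing the regions, showed where the 420 genes were expressed. Cells of the 2 cKO testis samples were clustered without these genes, and clusters were named from marker lists; counts were then summed per sample and class. The classes compared were like differentiating spermatogonia (364 and 515 cells), like pachytene or diplotene spermatocytes (1071 and 2385) and like round spermatids (1575 and 1307). The border between the last 2 classes was not alike in both samples. Prr22, 1700007K13Rik and 4930579F01Rik were leading genes of 473 round-like cells in sample 1 and of 581 pachytene-like cells in sample 2. Cnbd1 and 4933436I20Rik led 267 round-like cells in sample 1 and 440 pachytene-like cells in sample 2. What this does to the comparison of round with pachytene-like cells was not tested. Of the 420 genes, 286 were listed by symbol in the matrices and 225 passed the filter on low counts, which keeps a gene for its counts in any class. The pachytene-like class was higher in 175 of the 225 (77.8%) and lower in 14 (6.22%) in the edgeR quasi-likelihood test at a Benjamini-Hochberg adjusted p under 0.05 over all genes, against 33.0% and 28.9% of all 19630 genes tested. The median log2 fold change of the 225 was 3.97, against 0.30 over all genes tested. A gene off in spermatogonia can pass the filter only through the class where it is on, so these counts describe the genes that passed. Without the filter, 184 of 283 genes were higher and 15 lower, against 24.4% and 18.9% of all 28729 genes. Of the 225, 24 had no UMI in either spermatogonia-like sum. With these at a floor of 3 counts over the group (1.21 CPM, without TMM scaling), the median was 3.11. The other genes kept their TMM-scaled changes in that median. TMM and DESeq2 scaling placed the median of all genes at 0.30 and 0.04, and that of the 225 at 3.97 and 3.62.

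The expression change differed with the place of the region. Among the 9590 tested genes with a region of all 8 lists at their start, 30.1% were higher and 37.2% lower, with a median log2 of −0.24. Genes with a region open only in 4C-sorted cells inside them but not at their start stood near the background, with 35.3% of 1353 higher, 31.6% lower and a median of 0.15. Where the nearest such region lay 1 to 10 kb from the start, 39.5% of 585 genes were higher and 26.5% lower (median 0.70), and at 10 to 50 kb 33.9% of 2295 were higher and 29.8% lower (median 0.14). Genes with no region of any list at their start were also more often higher than lower, at 42.4% and 6.71% of the 1416 tested (median 2.06), with only 1416 of 4728 measured genes passing the filter. The 124 tested genes with a region of the cKIT+ lists only at the start shifted the same way, at 37.1% and 15.3% (median 1.42), as did the 2524 with any other region there, at 36.9% and 14.9% (median 1.18). Both kinds of gene shared the shift: 91 of 103 tested lncRNA genes were higher and 2 lower, as were 84 and 12 of 122 protein-coding genes. When the 28 tested genes that also had a region of all 8 lists at the start were left out, 164 of 197 were higher and 7 lower.

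**Figure D4:**
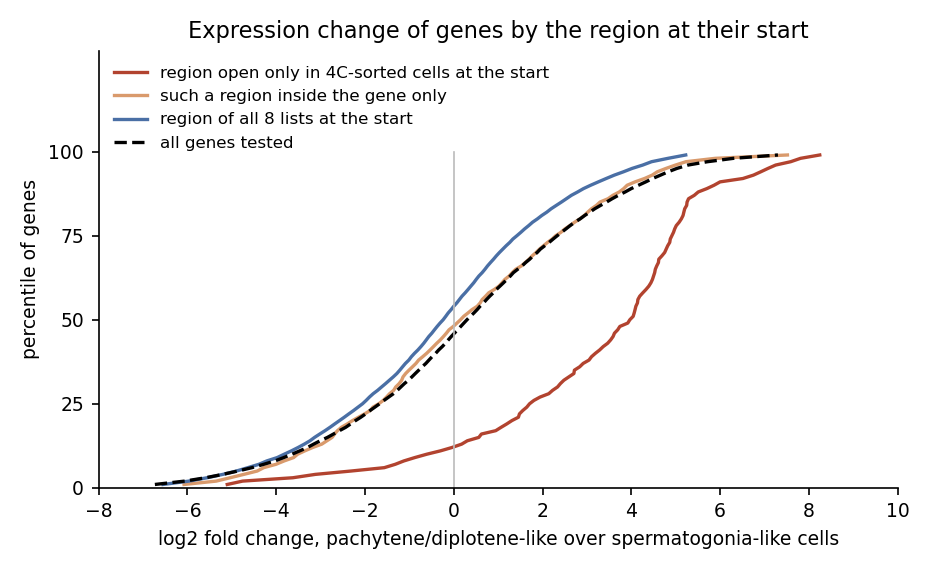
Percentile of genes (vertical axis) against the log2 fold change from spermatogonia-like to pachytene/diplotene-like cells (horizontal axis, edgeR), for 4 sets of tested genes. The curve of genes with a region open only in 4C-sorted cells at the start crosses the 50th percentile at 3.97, and that of genes with such a region only inside them at 0.15, close to all genes tested at 0.30.

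Of the 175 genes called higher, those most abundant in pachytene-like cells are given first, with levels as CPM, UMIs scaled to the class's total, in the 2 samples. Log2 changes here and below come from the edgeR fit with TMM scaling. CPM values lack that scaling, so their ratios differ from the fitted changes. The lncRNA 1700028J19Rik stood at 43.9 and 58.2 CPM in spermatogonia-like cells and 922 and 1193 in pachytene-like cells. Its fitted log2 change was 5.30 ± 0.58 (edgeR adjusted p = 5e-09). For log2 changes, ± gives an SE derived from the change and the F statistic of the edgeR test. Tmbim7, a gene of the transmembrane BAX inhibitor motif family, stood at 66.4 and 45.2 and then 1074 and 978 CPM (5.19 ± 0.61, edgeR adjusted p = 1.92e-08). The lncRNA 4930403D09Rik, whose promoter is printed above, stood at 69.7 and 56.9 and then 983 and 970 CPM. For these 3 genes every pachytene value was more than 10 times every spermatogonial one. Pgam2 went from 54.7 and 86.0 to 765 and 984 CPM (4.57 ± 0.54, edgeR adjusted p = 1.65e-08). Spata16 went from 32.1 and 23.9 to 558 and 376 CPM, but it is itself one of the markers by which the class was named. Catsperb, Slc9c1, Odf4, Tsga10ip and Ccdc144b rose by 4.32, 4.38, 4.45, 4.87 and 4.52 on the log2 scale. Fam170a, whose region lay at a gene end and which is not among the 175, rose by 4.61. For all of these genes the edgeR adjusted p lay between 2.55e-09 and 3.77e-08. Adcy10 rose by 3.11 and Ttc6 by 1.90 (edgeR adjusted p = 5.2e-07 and 7.1e-05).

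The 10 largest fitted rises all started from no UMI in spermatogonia-like cells, so only a bound can be given. Bounds were taken on counts over class totals, without TMM scaling. Speer1, a member of a rodent family of glutamate-rich spermatogenesis proteins, had 387 UMIs in pachytene-like cells and was at least 8.22-fold higher there than a floor of 3 counts over the spermatogonia-like group. The lncRNA genes Gm26630 and Gm45086 were at least 5.84-fold and 4.61-fold higher, and Gm5114 at least 3.97-fold. Bounds for Gm36799, Gm35454, Kcnmb3 (a subunit of a calcium-activated potassium channel), Gm20554, 4930539M17Rik and Gm40421 were 2.40-fold to 3.46-fold. These genes are scarce even where they are on, at 12.4 CPM or less in pachytene-like cells. Of genes with a few UMIs in spermatogonia-like cells, Prss47, a serine protease gene, went from 1 and 2 UMIs to 423 and 1476 (6.23 ± 0.69 on the log2 scale, edgeR adjusted p = 7.18e-09); it was chosen after the values were seen.

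Of the 14 genes that fell, the 5 largest falls were in Gm6329 (log2 −6.11), Cbarp (−5.28), Rasgrp2 (−5.19), Pdlim4 (−4.83) and Fndc4 (−4.77), with edgeR adjusted p between 1.95e-09 and 7.34e-05. Rasgrp2, which encodes an activator of Rap GTPases, was the best measured of these, at 41.8 and 62.1 CPM in spermatogonia-like cells and 0.596 and 0.883 in pachytene-like cells. Pdlim4 was also present outside germ cells, at 67.6 and 70.3 CPM in Leydig-like and 74.2 and 52.3 in macrophage-like cells. Dip2b, at whose start 1 of the highest peaks lay, also fell, from 159 and 123 CPM to 19.6 and 11.7 (−2.27 ± 0.40, edgeR adjusted p = 1.08e-05). A region open only in 4C-sorted cells thus lay at starts of genes that moved in either direction, though 7 of the 14 also had a region of all 8 lists at their start.

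From pachytene-like cells to round spermatids the genes split. Of the 225, 70 were higher (31.1%) and 60 lower (26.7%) in the edgeR test, against 32.1% and 24.8% of all genes tested, which is near the background in both directions. DESeq2 called 73 higher and 36 lower, against 32.9% and 20.2% of all genes tested with it. The largest rises were in 1700027F09Rik (log2 5.83), Ccin (5.74), Gm35865 (5.26), Morn3 (5.11) and 4930440I19Rik (5.00), with edgeR adjusted p of at most 7.51e-10. Ccin encodes calicin, a cytoskeletal protein of the sperm head; it stood at 2.74 and 3.21 CPM in pachytene-like cells, 109 and 200 in round spermatid-like cells and 366 and 390 in elongating spermatid-like cells. For these 5 genes the change from spermatogonia-like to pachytene-like cells was −0.32 to 1.25 on the log2 scale and did not pass the test, although their regions were present in the 4C-sorted lists; all but Ccin had another sign there under at least 1 alternative setting. Izumo2 and Atp1a4 followed the same course, with most of their rise after pachytene: 4.89 and 3.79 (edgeR adjusted p = 1.15e-09 and 4.56e-10). Their earlier rises of 1.24 and 1.11 passed the test (edgeR adjusted p = 0.0381 and 0.0389) but not with DESeq2 (0.125 and 0.0842) or with doublets kept (edgeR adjusted p = 0.809 and 0.271). Odf1, whose region lay at a gene end and which is not among the 225, rose by 3.08 from pachytene-like to round spermatid-like cells (edgeR adjusted p = 6.05e-08).

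The largest falls into round spermatids were in Gm45949 (log2 −3.98), Gm3371 (−3.64), Gm36831 (−3.41), Gata3 (−3.30) and Ehhadh (−3.25), with edgeR adjusted p between 1.02e-07 and 0.0118. Gata3 encodes a transcription factor known from T cell and kidney development; it stood at 3.22 and 1.29 CPM in spermatogonia-like, 12.2 and 6.58 in pachytene-like and 0.888 and 0.779 in round spermatid-like cells. Its region lay 893 bp from the start. Ehhadh, a peroxisomal enzyme gene, stood at 0.715 and 0.425 CPM in pachytene-like cells and did not pass with DESeq2 (adjusted p = 0.0508), and Gm36831 did not pass with doublets kept (edgeR adjusted p = 0.0793). Catsperb, Slc9c1, Spata16 and Ccdc144b were lower in round spermatids by 1.23 to 1.94 on the log2 scale, and Odf4, Pgam2 and Adcy10 did not pass the test, with log2 changes of −0.09, −0.28 and 0.30. With doublets kept, the falls of Catsperb and Slc9c1 did not pass (edgeR adjusted p = 0.0942 and 0.0789).

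Summed, the 286 measured genes gave 0.235% and 0.226% of UMIs in spermatogonia-like cells of the 2 samples, 0.568% and 0.336% in leptotene- or zygotene-like cells and 1.40% and 1.40% in pachytene-like cells. The share was highest in round spermatid-like cells, at 1.80% and 2.06%, and stood at 1.57% and 1.70% in elongating spermatid-like cells. Leydig-like cells, a somatic class, held 0.230% and 0.205%, close to the spermatogonial share. Sertoli-like cells held 1.17% and 0.928% and macrophage-like cells 0.381% and 0.574%. Spermatid genes were also found in Sertoli-like cells, where Morn3 stood at 216 and 220 CPM and Ccin at 101 and 154; what part free RNA has in the germ cell values was not tested. By its highest class, each of 200 genes with at least 5 CPM was placed: 39.5% peaked in pachytene-like, 28.5% in round spermatid-like, 13.5% in elongating and 4% in spermatogonia-like cells. Over all 17668 such genes the shares were 14.6%, 13.997%, 11.0% and 22.3%.

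**Figure D5:**
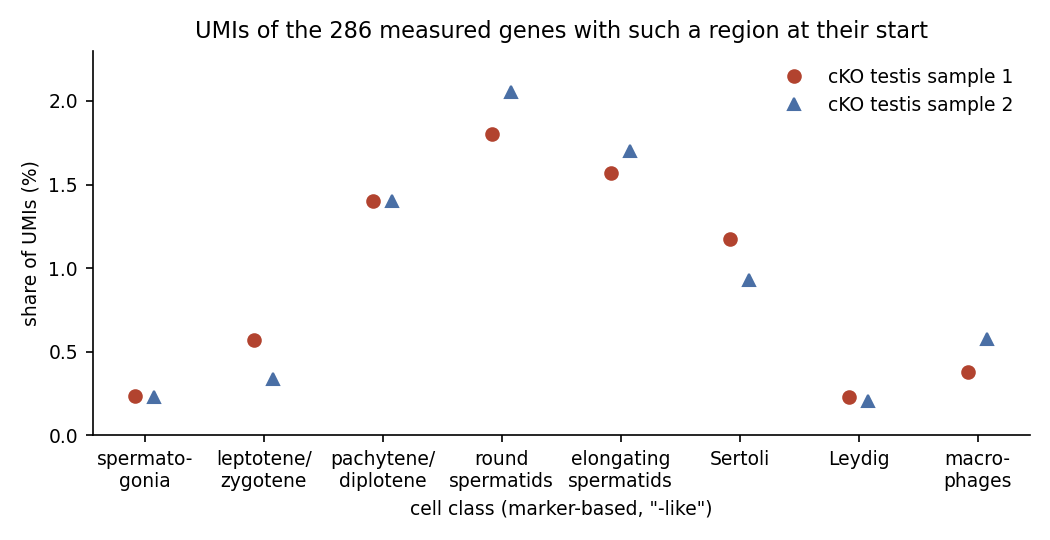
Share of UMIs (vertical axis, %) that came from the 286 measured genes with a region open only in 4C-sorted cells at their start, in each marker-based cell class (horizontal axis), 1 point per cKO sample. Both points rise from 0.235% and 0.226% in spermatogonia-like to 1.40% in pachytene-like cells and are highest in round spermatid-like cells; Sertoli-like cells lie at 1.17% and 0.928%.

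Between genotypes, neither covered length nor relative fold of the regions as a set differed by more than the spread between libraries. Peaks covered 1346016 and 1447580 bp within the regions (wild type) and 1208910 and 1382456 bp (cKO), and these groups overlapped. The log2 ratio of the means was −0.11 (two-sided exact permutation p = 0.667, where the smallest p that 2 libraries against 2 allow is 0.333). The median fold of the regions, divided by that of regions of all 8 lists in the same library, was 0.742 ± 0.0249 for wild type, against 0.747 ± 0.0013 for cKO (SD over 2 libraries, exact permutation p = 1.0). Region by region, both cKO folds were above both wild-type folds in 502 (15.2%) and below both in 1092 (33.0%), against 14.3% and 36.2% of all 28032 regions in the 4C-sorted lists. Both shares are near that background. The share below was larger among higher peaks in both sets. Of the 100 highest regions, with mean folds of 6.62 or more, 48.0% were below and 8 regions above. Of the 5205 regions of all 8 lists at such folds, which reach 41.6, 47.2% were below and 7.22% above. Of the 2313 lowest, 28.8% were below and 16.5% above, against 27.1% and 20.9% of the regions of all 8 lists with folds in that range. Regions at gene starts had both cKO folds lower in 41.8% and higher in 12.2%, and the others in 31.8% and 15.5%. The same split by place was not made for other sets. Regions of all 8 lists, 54.1% of them at a gene start, had both cKO folds lower in 38.7% and higher in 13.1%.

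Across the 3313 regions, fold correlated at a Pearson r of 0.760 between the wild-type libraries and 0.708 between the cKO libraries, and at 0.517 to 0.581 between libraries of different genotype. This is a description over regions, which are not replicates. The 5 largest differences in the direction of higher fold in cKO lay at the start of the protein-coding gene Gm5114, in Grb10 (an imprinted adaptor gene), in Atp2b2 (a calcium pump gene), and outside genes near Gm42060 and Zscan26. The region at Gm5114 (chr7:39412913-39413367) stood at 3.03 and 3.68 (wild type) and 5.94 and 6.69 (cKO). Among the largest differences in the other direction were a region inside Sgtb and one outside genes, 16319 bp from Klk1b16. The largest, chr1:6959772-6960039, stood at 9.79 and 7.85 (wild type) and 3.39 and 3.01 (cKO), a log2 ratio of −1.46. At this site the groups lay more than 2-fold apart, but every such region was picked as an extreme among 3313, so these values are given without a test.

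The regions were spread over all 19 autosomes, from 100 on chromosome 19 to 273 on chromosome 5. Chromosome 14 had the most for its accessible sites, at 25.04 per 100 regions of all 8 lists, and chromosome 11 the fewest, at 13.9. In windows of 1 Mb, 1325 held at least 1 and 299 held 4 or more. The fullest was chr4:137000001-138000000, with 13 regions beside 20 of all 8 lists, at genes such as Rap1gap, Hspg2 and Ece1. The window chr5:11000001-12000000 had 11 regions and no region of all 8 lists, and 9 genes had one at their start, among them Speer1, 1700003C15Rik and 1700108N06Rik. At chr11:3000001-4000000, 11 regions had a median mean fold of only 1.87, and they lay in part in Sfi1. The window chr7:24000001-25000000 also had 11, and 4 windows, all on chromosome 5, had 10 each. Of 347 distinct promoter windows overlapped by the regions, 9 matched another at 90% or more of their bases position by position, 7 of them on chromosome 14. Reads of such copies can be split or shared by the authors' mapping, so values of single gene copies on chromosome 14 are uncertain. Neighbouring regions were a median of 265462 bp apart, and 1.84% lay within 1 kb of a region of all 8 lists.

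Away from gene starts, regions lay inside 1333 of the 20665 protein-coding autosomal genes (6.45%). Gene length was not adjusted for in this share. Of the 60 flagellum genes 10 held one, among them Dnah12, which encodes a dynein heavy chain, and Cfap54, Cfap58, Cfap61 and Cfap65. The spermatogonial regulators Gfra1, Pax7 and Zbtb16 each held one, as did the meiotic genes Hormad1 and Ankrd31, the cAMP-responsive factor gene Crem and the CTCF paralogue gene Ctcfl. Their expression went both ways: Crem rose by 3.41 from spermatogonia-like to pachytene-like cells (edgeR adjusted p = 8.43e-08), while Zbtb16 fell by 4.00 and Ctcfl fell by 4.88 (edgeR adjusted p = 5.46e-09 and 3.33e-06). Of the 8 endothelial markers, Cdh5, Pecam1 and Tie1 held a region inside the gene, and of the 11 Sertoli markers Wt1 did. In pachytene-like cells Cdh5 stood at 0.119 and 0.033 CPM, Pecam1 at 4.53 and 4.75, Tie1 at 0.477 and 0.425 and Wt1 at 5.01 and 2.59, against 75.3 and 224 CPM for Wt1 in Sertoli-like cells. Whether such cells had a part in the regions of these 4 genes was not tested. Few regions were at miRNA genes; 1 region on chromosome 12, chr12:109738233-109739512, held the hairpins of Mir154 and Mir496a, at a mean fold of 5.06.

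The edge of the set was set by weak peaks. Regions in all 4 lists of 4C-sorted cells with a peak in just 1 cKIT+ list numbered 1396, of which 684 had it in cKO cKIT+ replicate 1, 282 in wild-type replicate 1, 230 in cKO replicate 2 and 200 in wild-type replicate 2. The median −log10 q of those cKIT+ peaks was 1.68 to 2.27. The regions just outside, such as chr1:130377811-130378111 with a mean fold of 4.13 in 4C-sorted cells, were kept out by a cKIT+ peak with a −log10 q of 1.04. Another 3184 regions had no cKIT+ peak and missed just 1 of the 4 lists of 4C-sorted cells. The 3 regions inside the set whose lowest −log10 q was nearest the calling threshold had mean folds of 2.91 to 3.46, while the lowest mean fold of any region in the set was 1.66. Of those 3, chr2:167651829-167653275, stood at 2.88 and 3.07 (wild type) and 2.55 and 3.15 (cKO). On chromosome X, which is outside the rule, 240 regions met the same condition.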

How the data were processed

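The authors' peak lists are 1 per ATAC library. The submitters' processing notes name cutadapt, Bowtie2, MACS2 and the mm10 build; versions and settings are not given in the sources used here. The deposited lists give for each peak a score, a fold enrichment (a ratio over local background), and its −log10 p and −log10 q, all the authors' values; the lowest −log10 q was near 1. The deposited single-cell files hold raw UMI counts made with Cell Ranger 7.1.0 and 9.0.1, per the file headers; Seurat 4.1.0 is named in the processing notes without a role. The regions and gene lists were chosen with earlier results of these data known.

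Peaks were joined and placed with pandas 2.3.3 on RefSeq starts of GRCm38.p6; 25748 autosomal genes had a listed start, and none was on chromosome 18. Members were ranked by the mean over the 4 lists of their highest fold. The 10 highest, the 10 highest at starts, the 5 widest, the 5 extremes of genotype in each direction, the 5 fullest windows and the genes with the largest changes are named by rule; others are named as chosen later, and 1 region that the rule names is not reported here. Cells with at least 1000 UMIs, 500 genes and at most 10% mitochondrial UMIs were kept, and doublets (685 and 1329) were removed with Scrublet in scanpy 1.11.5, leaving 7413 cells with a median of 3678 UMIs and 12933 with 4333; the samples share 27 barcodes. Clusters (Leiden, resolution 1) took the class with most of 14 marker lists' genes among their 10 leading genes, and otherwise the highest marker level. This rule was set after the clusters were seen. In the 2 samples, 1140 and 2854 cells stayed unnamed and are in no class sum. Some of their clusters had many UMIs, such as 432 cells (median 9266) in sample 1 and 747 (11062) in sample 2. Others had few, such as 199 cells (1344) in sample 1. An unnamed cluster of 486 cells in sample 2 had 11 raised round spermatid markers but leading genes of another class. Sums per sample and class were tested with edgeR 4.0.16 (TMM, filterByExpr, sample as a block, 2 contrasts, Benjamini-Hochberg over 19630 genes, threshold 0.05); DESeq2 1.42.0 was an alternative. Of 32285 listed genes 26696 were matched to RefSeq. Class sums held 933174 to 30561072 UMIs in the germ cell classes. Exact permutation tests used the 4 lists of 4C-sorted cells.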

Additional observations from a re-analysis of the deposited data

How the results depend on the processing

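The number of regions depended on the peak threshold. It was 1490 with −log10 q of at least 5 in every list, 362 with that limit only on the 4C-sorted lists, and 5857 with all lists cut to the length of the shortest (44697 peaks). Of the 3313 regions, 362, 362 and 2546 were found again under these settings. Leaving out 1 library at a time gave 3535 to 4476 regions. The share at a gene start was 24.3% at −log10 q of at least 5, 15.9% with lists of equal length, 9.57% and 14.3% with windows of 250 and 2000 bp, and 10.4% to 12.4% without 1 library.

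Among genes with a region at their start, the number higher in pachytene-like cells was 148 of 222 tested with doublets kept and 157 of 215 at resolution 0.5. With DESeq2 it was 167 of 225, against 29.6% of all genes. Without the filter it was 184 of 283, against 24.4% of all genes. The share over all genes is not given here for doublets kept or resolution 0.5. The number higher was 35, with 4 lower, of 48 tested when only regions with −log10 q of at least 5 were used, since fewer genes were tested. The number lower was 7 of 191 and 24 of 279 with windows of 250 and 2000 bp, against 28.9% of all genes. It was 7 of 197 without genes that also had a region of all 8 lists at the start, a setting chosen after seeing the data. For round spermatids, the stricter regions gave 11 higher and 14 lower of 48 tested, against 32.1% and 24.8% of all genes. The number lower was 36 of 225 with DESeq2, against 20.2% of all genes, and 37 of 222 with doublets kept. The cause of these differences was not tested. Without sample 1 or sample 2, as differences with no test, the median log2 was 3.03 and 2.85 into pachytene and 0.15 and 0.05 into round spermatids. These are differences of log2 CPM with a prior count added. They are not on one scale with the fitted edgeR medians of both samples, such as 3.97 into pachytene.

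The genotype ratio of median fold, 0.01 on the log2 scale, was −0.042 at −log10 q of at least 5 (exact permutation p = 0.333) and −0.0192 with means (exact p = 1.0), and ran from −0.0128 to 0.071 without 1 library. That of covered base pairs ran from −0.22 to −0.04 without 1 library. With the replicate number as a block, the values were −0.11 (exact p = 0.5, the smallest it allows) and 0.01 (exact p = 1.0). Same-numbered libraries of 4C-sorted cells did not deviate together in fold (correlation 0.011 over 3313 regions). This value cannot show whether the libraries were prepared in pairs. Without the sample as a block in the single-cell fit, 172 of 225 genes were higher and 14 lower into pachytene, and 64 and 48 into round spermatids. The shares over all genes in that fit are not given here.

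Single genes whose change did not pass the test and had the other sign under an alternative were 1700003H04Rik into round spermatids (−0.020 without the filter, −0.086 with doublets kept), Cbarp (0.12) and Odf4 (0.13) there with DESeq2, and, into pachytene, 1700027F09Rik (−0.36 with doublets kept, −0.43 at resolution 0.5), 4930440I19Rik (−0.26 and −0.0015 likewise), Morn3 (−0.12) and Odf1 (−0.12) with doublets kept, and Gm35865 (0.12 without the filter). Unknown depth of the ATAC libraries limits every statement that a peak is absent.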
